A study of Homo sapiens with 40 samples.

Results

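The inhibitor of differentiation genes ID1, ID2, ID3 and ID4 were chosen by their gene symbols alone, and all 4 were present among the 60708 genes of the count files. RNA was sequenced from 24 libraries, 3 in each of 8 groups, and another 16 samples of the series hold ATAC-seq, which was not analysed here. MI-spheres are 3D cultures of MCF-10A, an immortalised human mammary epithelial line, and MII-spheres are 3D cultures of its HRAS-transformed derivative. Spheres of each line received TGFβ at 2.5 ng/ml for 16 h or no stimulation (Ctrl). MDA-MB-231, a triple-negative breast cancer line, was grown as monolayers: WT cells were compared with SLUG KO cells, in which the SNAI2 gene was targeted by CRISPR/Cas9 in its first exon, and cells transfected with a scrambled control siRNA (Csi) were compared with cells given siRNAs against SMAD2, SMAD3 and SMAD4 (siSMAD2/3/4). The SLUG KO cells were grown from single-cell colonies, and the sources used here do not state how many clones the 3 libraries represent. All MDA-MB-231 cells were cultured in serum, and none of these 4 groups was given TGFβ. All cells were established lines, and the labels call the libraries of a group biological replicates without saying whether the cultures were started separately, so p-values measure the spread between these libraries.

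ID proteins are helix-loop-helix proteins that lack the basic region with which related factors touch DNA. They pair with the E proteins TCF3, TCF4 and TCF12 and keep them, and the tissue-specific factors that need them, away from the E-box, the DNA element that such dimers bind. ID1, ID2 and ID3 are classical targets of BMP signalling through SMAD1 and SMAD5, whereas TGFβ, through SMAD3, is known to lower ID1 to ID3 in epithelial cells and to raise ID1 in some other settings. High ID levels are associated with proliferation and an undifferentiated state.

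The genes lie apart in the genome, and the files count fragments over their exons in GENCODE annotation of GRCh38. ID1 (ENSG00000125968.9) lies at chr20:31605283-31606515 on the plus strand with 1233 exonic bases, and ID3 (ENSG00000117318.9) at chr1:23557926-23559501 on the minus strand with 1496. ID2 (ENSG00000115738.10) spans chr2:8678845-8684461 on the plus strand with 2213 exonic bases, of which 145 (6.55%) are shared with the antisense RNA ID2-AS1. ID4 (ENSG00000172201.12) spans chr6:19837370-19842197 on the plus strand with 3873 exonic bases, and its span overlaps the antisense RNA LNC-LBCS without shared exonic bases. The counting ignored strand, so reads of ID2 and ID2-AS1 in the shared bases cannot be told apart, but ID2-AS1 itself had at most 27 counts in a library.

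The 250 bases before the RefSeq transcription start of each gene are shown because SMADs, ATF3 and E-box binding factors, described as regulators of some ID genes, bind DNA at short elements. No binding was measured here. The windows, in build GRCh38.p14, are chr20:31605039-31605288 for ID1, chr2:8681806-8682055 for ID2, chr1:23559502-23559751 on the minus strand for ID3 and chr6:19837120-19837369 for ID4. Capitals mark matches to the motifs searched.
ID1: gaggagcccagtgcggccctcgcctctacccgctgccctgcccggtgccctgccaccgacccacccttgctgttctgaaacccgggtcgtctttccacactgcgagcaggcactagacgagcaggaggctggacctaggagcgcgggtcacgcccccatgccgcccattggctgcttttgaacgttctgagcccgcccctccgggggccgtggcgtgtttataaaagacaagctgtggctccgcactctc
ID2: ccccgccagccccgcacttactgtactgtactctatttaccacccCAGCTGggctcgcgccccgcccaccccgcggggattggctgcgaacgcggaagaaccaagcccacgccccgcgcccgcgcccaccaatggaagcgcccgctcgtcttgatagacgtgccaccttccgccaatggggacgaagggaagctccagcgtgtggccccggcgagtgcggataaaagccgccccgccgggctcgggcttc
ID3: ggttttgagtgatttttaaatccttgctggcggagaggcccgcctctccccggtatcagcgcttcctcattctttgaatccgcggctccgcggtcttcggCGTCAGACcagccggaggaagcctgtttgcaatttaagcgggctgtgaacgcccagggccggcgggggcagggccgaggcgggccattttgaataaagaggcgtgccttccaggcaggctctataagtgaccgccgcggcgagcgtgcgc
ID4: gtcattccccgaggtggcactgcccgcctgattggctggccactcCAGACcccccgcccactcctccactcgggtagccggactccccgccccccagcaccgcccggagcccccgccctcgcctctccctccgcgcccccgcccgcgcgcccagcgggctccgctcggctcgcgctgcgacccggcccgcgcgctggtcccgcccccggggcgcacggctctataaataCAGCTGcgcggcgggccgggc
The motifs searched on both strands were GGCGCC (a GC-rich element bound by SMAD1 and SMAD5), CAGAC (a SMAD3 and SMAD4 element), CANNTG (the E-box) and TGACG (the core of ATF and CREB sites). No window held GGCGCC, which occurred in 16.4% of the 35116 RefSeq promoters of the same length. CAGAC was present 147 to 143 bases before the start of ID3 and 205 to 201 bases before that of ID4, and in 38% of all promoters. An E-box with the letters CAGCTG stood 205 to 200 bases before the ID2 start and 21 to 16 bases before the ID4 start, and 61.8% of all promoters held an E-box. TGACG, read on the other strand as CGTCA, was found in the ID3 window only, 150 to 146 bases before the start, where it overlaps the CAGAC match, and in 21.2% of all promoters. The ID1 window held none of these letters. GC content was 66.0% for ID1, 69.2% for ID2, 62.0% for ID3 and 78.8% for ID4, against a median of 58% over all promoters. The matches are a description of the sequence, not of binding sites.

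Total counts per library ranged from 14124688 to 38406952. Replicates of 7 groups correlated with Pearson's r of at least 0.997 across genes in log2 CPM, whereas WT replicate 2 stood apart from the other WT libraries (r of 0.977 and 0.974). In libraries labelled SLUG KO, SNAI2 RNA was higher than in WT (log2 fold change 1.10, edgeR adjusted p = 0.0443, not called in 5 of the 6 fits that leave out 1 library, at 0.0695 to 0.239), and counts over all exons do not show whether the edit disrupts the protein. HRAS was higher in MII- than in MI-spheres (log2 fold change 2.45), and SMAD2, SMAD3 and SMAD4 fell by 1.92, 0.69 and 1.72 on the log2 scale under siSMAD2/3/4. The 5 general epithelial markers summed to 1325 to 1798 CPM in spheres and 17.6 to 57.2 CPM in MDA-MB-231, the 6 mesenchymal markers to 26.2 to 67.3 and 2772 to 3856 CPM.

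Levels of the ID genes are CPM, that is, counts set against the TMM-scaled size of each library, with the scaling done over all 24. In bulk RNA a lower level can mean fewer expressing cells or less RNA per cell, and these cannot be told apart. ID1 was at 902, 847 and 912 CPM in replicates 1 to 3 of unstimulated MI-spheres and at 778, 698 and 896 CPM in stimulated ones. In MII-spheres ID1 was at 320, 333 and 315 CPM without and 266, 217 and 254 CPM with TGFβ. In MDA-MB-231 it was at 30.1, 54.2 and 42.7 CPM in WT, 28.8, 24.7 and 27.3 CPM in SLUG KO, 72.1, 69.4 and 62.7 CPM in Csi and 94.6, 95.5 and 92.9 CPM in siSMAD2/3/4. The order from high to low was thus MI, MII and MDA-MB-231, and within MDA-MB-231 it ran siSMAD2/3/4, Csi, WT and SLUG KO. Neighbours in this order did not overlap in their libraries, except unstimulated and stimulated MI-spheres. WT and SLUG KO were separated narrowly, by 30.1 CPM in the lowest WT and 28.8 CPM in the highest SLUG KO library. ID1 was not called between WT and SLUG KO in the fit given below. The share of all genes separated in this way was not computed, for ID1 or for the other ID genes. The Csi and siSMAD2/3/4 libraries carry another batch label than the other 6 groups, so their place against those cannot be told apart from batch.

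ID3, the closest of the others in pattern, was at 248, 232 and 250 CPM in unstimulated and 233, 226 and 239 CPM in stimulated MI-spheres. MII-spheres had 69.5, 71.1 and 66.0 CPM without TGFβ and 40.3, 37.8 and 37.997 CPM with it. ID3 was at 6.01, 15.3 and 11.3 CPM in WT, 4.37, 3.84 and 4.35 CPM in SLUG KO, 17.9, 15.5 and 15.2 CPM in Csi and 25.02, 23.3 and 21.6 CPM in siSMAD2/3/4. The groups followed the order of ID1, and the neighbours that overlapped were the MI pair and Csi with WT. The overlap of the MI pair depended on the scaling. With the size factors of DESeq2 in place of TMM, unstimulated MI-spheres had 235 to 254 CPM and stimulated ones 224 to 233 CPM.

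ID2 was at 140, 140 and 155 CPM in unstimulated MI-spheres and at 69.9, 69.6 and 78.7 CPM after TGFβ. Unstimulated MII-spheres, at 82.8, 81.6 and 81.9 CPM, lay between these, and stimulated MII-spheres were lower, at 58.1, 57.9 and 57.5 CPM. In MDA-MB-231 cells ID2 was nearly absent: 0.751, 0.746 and 0.805 CPM in WT, 0.715, 0.822 and 1.22 CPM in SLUG KO, 2.21, 1.85 and 1.95 CPM in Csi and 2.96, 3.5001 and 2.35 CPM in siSMAD2/3/4. The only neighbours that overlapped were SLUG KO and WT. Those 6 libraries hold 18 to 27 ID2 counts each, and ID2B, a processed copy of ID2 elsewhere in the genome, took 0 to 9 counts in them, so ID2 there is uncertain. ID2B had no counts in the Csi and siSMAD2/3/4 libraries.

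ID4 had another order. Among spheres it was lowest in the line where the others were highest, at 1.27, 0.723 and 0.987 CPM in unstimulated and 0.329, 0.448 and 0.468 CPM in stimulated MI-spheres. MII-spheres had 5.17, 4.45 and 3.56 CPM without and 2.71, 3.27 and 4.83 CPM with TGFβ, and these ranges overlapped with each other. Csi cells were at 3.18, 2.58 and 3.01 CPM and siSMAD2/3/4 cells at 3.98, 4.23 and 4.06 CPM. WT cells were at 0.751, 0.332 and 0.725 CPM, from 20, 8 and 18 counts, and no fragment was counted in the 3 SLUG KO libraries. MII-spheres, Csi and siSMAD2/3/4 cells formed the upper group, within which only Csi and siSMAD2/3/4 cells and Csi and unstimulated MII-spheres did not overlap, and each of these libraries was above the MI-sphere and WT libraries. MI-spheres without TGFβ overlapped with WT cells, and WT cells with stimulated MI-spheres.

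**Figure D1:**
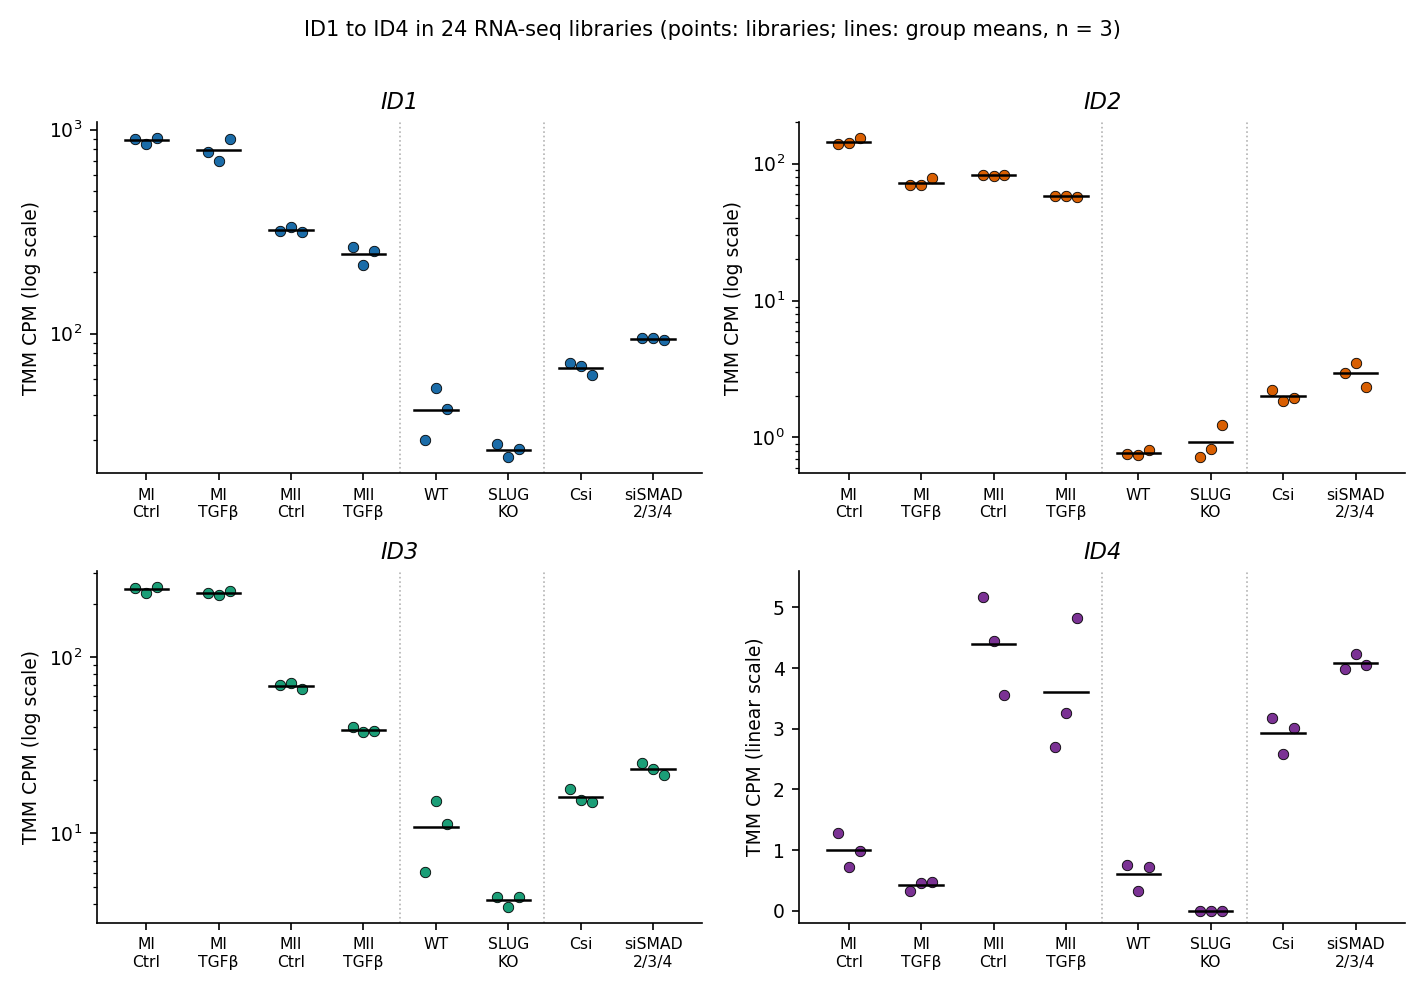
Level of each ID gene in the 24 libraries, as TMM-scaled CPM on the y axis (log scale for ID1 to ID3, linear for ID4), by group on the x axis. Points are libraries and lines the mean of 3. ID1 and ID3 fall from MI- through MII-spheres to MDA-MB-231. ID2 is lowest in MDA-MB-231 and lower in MII- than in MI-spheres within each condition, but unstimulated MII-spheres lie above stimulated MI-spheres. ID4 is highest in unstimulated MII-spheres (4.39 CPM on average) and siSMAD2/3/4 cells (4.09 CPM) and at 0 in SLUG KO.

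Set side by side per kilobase of exon, ID1 led the family in every group and took 75.6% to 87.2% of the summed ID level on average. In MI-spheres without TGFβ, ID1 was at 720 CPM per kb, ID3 at 163, ID2 at 65.5 and ID4 at 0.257. In MII-spheres the same order held at 262, 46.0, 37.1 and 1.13 CPM per kb. ID3 was above ID2 in every group but stimulated MII-spheres, in which they overlapped at 25.9 and 26.1 CPM per kb. ID2 and ID4 overlapped in siSMAD2/3/4 cells, at 1.33 and 1.06 CPM per kb. In unstimulated MI-spheres ID1 stood at percentile 99.87 to 99.88 of detected genes in its level per kb, and in SLUG KO cells at percentile 92.1 to 93.1.

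TGFβ stimulation of MI-spheres was compared with no stimulation to follow the response of the family in cells without the oncogene. All 4 genes were lower by edgeR's quasi-likelihood test, where 27.4% of the 16863 genes tested were called lower and 28.7% higher at an adjusted p under 0.05. ID2 fell by 1.08 on the log2 scale (SE 0.058, adjusted p = 2.40e-13), which is 2.11-fold lower, and its 3 stimulated libraries lay below the 3 unstimulated ones. ID1 fell by 0.25 (SE 0.063, adjusted p = 0.00175) and ID3 by 0.15 (SE 0.050, adjusted p = 0.0129). The CPM of each overlapped between the conditions, that of ID3 under TMM but not under DESeq2's size factors. ID4 fell by 1.33 (SE 0.39, adjusted p = 0.00618) at 6 to 11 counts per stimulated library. With an absolute log2 fold change above 1, ID2 and ID4 were differentially expressed genes (DEGs), against 9.89% of the genes tested that were lower DEGs. ID3 was no longer called by DESeq2 (adjusted p = 0.0980) or without MI Ctrl replicate 1 or 3 or MI TGFβ replicate 1 (0.0532 to 0.0778), and neither was ID4 by DESeq2 (0.0690) or without MI Ctrl replicate 1 (0.0669).

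In MII-spheres ID1, ID2 and ID3 were lower after TGFβ, where 27.7% of the 16396 genes tested were called lower and 30% higher. ID3 fell by 0.87 on the log2 scale (SE 0.058, adjusted p = 7.57e-22), ID2 by 0.54 (SE 0.052, adjusted p = 7.83e-15) and ID1 by 0.43 (SE 0.049, adjusted p = 3.15e-08). None of these genes overlapped between the conditions in their libraries, and the share of all genes without overlap was not computed. ID4 was not called: its log2 fold change was -0.32 (95% interval -0.70 to 0.06, adjusted p = 0.151), and it reached -0.57 (adjusted p = 0.0202) without MII TGFβ replicate 3, the library with the highest ID4 among the stimulated ones. The 7 basal epithelial markers summed to 2842 to 2916 CPM without and 4840 to 5050 CPM with TGFβ in MI-spheres, and to 1392 to 1483 CPM and 2751 to 2950 CPM in MII-spheres, and their part in the ID changes was not tested.

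Whether the response differed between the lines was tested as an interaction of cell line and TGFβ in the 12 sphere libraries, where 12.7% of 18591 genes were called higher and 9.85% lower. ID2 and ID3 differed in opposite directions. The log2 fold change of ID2 was higher in MII- than in MI-spheres by 0.55 (SE 0.076, adjusted p = 1.13e-07), that is, ID2 fell less in MII. That of ID3 was lower in MII by 0.71 (interaction -0.71, SE 0.072, adjusted p = 1.92e-11). ID1 (interaction -0.17, 95% interval -0.40 to 0.06, adjusted p = 0.303) and ID4 (1.03, 0.17 to 1.88, adjusted p = 0.0773) were not called, although ID1 passed without MI TGFβ replicate 2 (-0.29, adjusted p = 0.0164).

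Ratios within a library do not depend on its scaling. The ratio of ID1 to ID2 per kb was 11.6, 10.8 and 10.6 without and 19.99, 18.01 and 20.4 with TGFβ in MI-spheres. For MII-spheres it was 6.94, 7.32 and 6.91 without and 8.21, 6.73 and 7.93 with TGFβ. The ratio thus separated the conditions in MI- and overlapped in MII-spheres. The reverse held for ID1 to ID3: means of 4.42 and 4.12 overlapped in MI-spheres, whereas MII-spheres had 5.58, 5.68 and 5.80 without and 7.99, 6.97 and 8.12 with TGFβ, with no overlap.

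HRAS-transformed and parental spheres were compared without stimulation. ID1, ID2 and ID3 were lower in MII than in MI, where 32.6% of the 17862 genes tested were called lower and 31.8% higher. ID3 fell by 1.81 on the log2 scale (SE 0.041, adjusted p = 3.85e-57), ID1 by 1.45 (SE 0.035, adjusted p = 1.01e-54) and ID2 by 0.81 (SE 0.043, adjusted p = 1.68e-30). ID4 was higher by 2.12 (SE 0.23, adjusted p = 9.65e-14), or 4.34-fold, from 15 to 33 counts in MI to 64 to 133 in MII. The libraries of each gene did not overlap between the lines, and the share of all genes without overlap was not computed. Under TGFβ, where 31.6% of 15878 genes were called lower and 31.2% higher, ID3 was lower by 2.51 on the log2 scale (log2 fold change -2.51, SE 0.055, adjusted p = 6.75e-25), ID1 by 1.61 (-1.61, SE 0.081, adjusted p = 2.25e-09) and ID2 by 0.25 (-0.25, SE 0.061, adjusted p = 6.00e-04). ID4 was higher by 3.15 (SE 0.34, adjusted p = 3.23e-09). The MII and MI libraries of these comparisons are those of the TGFβ comparisons above. The lines also differed in their markers: the 7 basal epithelial markers, in the sums given above, did not overlap between unstimulated MI- and MII-spheres, and their part in the ID result was not tested.

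Depletion of SMAD2, SMAD3 and SMAD4 in MDA-MB-231 lowered mediators of TGFβ, and of BMP in the case of SMAD4. All 4 ID genes were higher under siSMAD2/3/4 than under Csi, where 16.3% of 17696 genes were called higher and 19.8% lower. The libraries of each ID gene did not overlap between the conditions, and the share of all genes without overlap was not computed. The log2 fold change was 0.47 for ID1 (SE 0.049, adjusted p = 3.03e-10), 0.55 for ID2 (SE 0.19, adjusted p = 0.0183), 0.52 for ID3 (SE 0.079, adjusted p = 8.45e-07) and 0.48 for ID4 (SE 0.15, adjusted p = 0.0124). The 4 estimates thus ranged from 0.47 to 0.55, with ID2 resting on 66 to 120 counts per library. Csi and siSMAD2/3/4 replicate 3 carry another flow cell in the file names than siSMAD2/3/4 replicates 1 and 2. With flow cell as a term, the estimate therefore rests on siSMAD2/3/4 replicate 3 alone against Csi. In that fit ID2 (0.24) and ID4 (0.48) lost their call, and a single depleted library cannot settle the part of flow cell. ID2 was also not called by DESeq2 (adjusted p = 0.0678) or without Csi replicate 2 or 3 or siSMAD2/3/4 replicate 1 or 2 (0.0526 to 0.148), and ID4 was not called without Csi replicate 2 (0.0703).

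**Figure D2:**
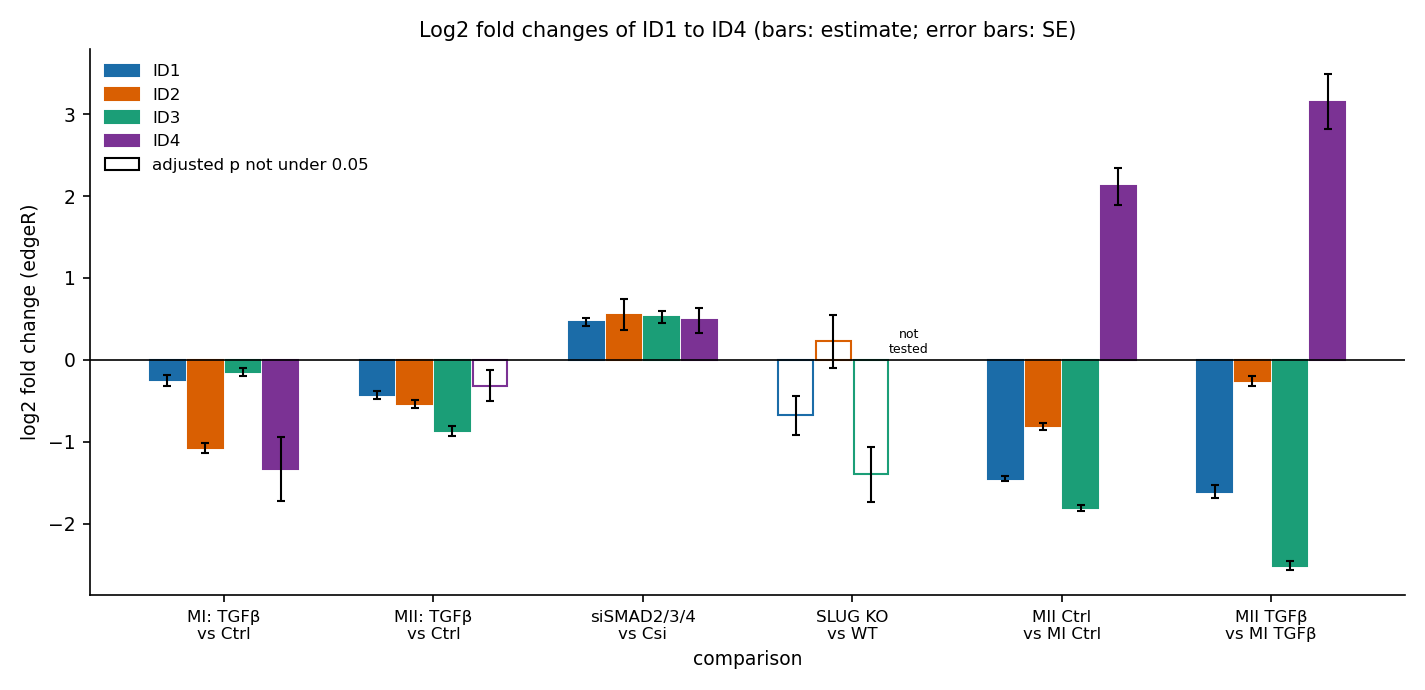
Log2 fold changes (y axis) of ID1 to ID4 in 6 comparisons (x axis), from edgeR fits to 6 libraries each. Error bars are SE, and open bars have an adjusted p of 0.05 or more. ID2 shows the largest drop among ID1 to ID3 under TGFβ in MI-spheres (-1.08) and ID3 in MII-spheres (-0.87), the 4 bars under siSMAD2/3/4 lie between 0.47 and 0.55, and ID4 is the only gene above 0 in MII- against MI-spheres.

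SLUG KO and WT cells were compared to see the effect of targeting SLUG, a repressor of epithelial genes. No ID gene was called among the 17428 genes tested by edgeR's quasi-likelihood test, of which 1.8% were called lower and 1.34% higher, although ID1 and ID3 had an unadjusted p under 0.05. ID3 had a log2 fold change of -1.40 (95% interval -2.19 to -0.60, adjusted p = 0.0878), ID1 of -0.68 (-1.24 to -0.11, adjusted p = 0.201) and ID2 of 0.23 (-0.53 to 0.99, adjusted p = 0.726). For ID1 and ID3 each SLUG KO library was below each WT library, and the share of all genes separated in this way was not computed. WT replicate 2 was the highest WT library for both. Without that replicate ID1 was at -0.44 (adjusted p = 0.0109) and ID3 at -1.05 (adjusted p = 0.00120), and DESeq2 called ID3 (-1.34, adjusted p = 0.0101) but not ID1. ID4 was not tested, since its 20, 8 and 18 WT counts and 0 SLUG KO counts missed the low-count filter. Against a floor of 3 counts over the SLUG KO group (0.0434 CPM), ID4 was at least 14.0-fold lower than the pooled WT level of 0.609 CPM, a bound that covers counting error only. Without the filter edgeR gave ID4 an adjusted p of 0.00188 and DESeq2 one of 6.74e-04, and in fits without WT replicate 2, in which ID4 passed the filter, edgeR gave 9.56e-05. In fits without a SLUG KO replicate, in which it also passed, the adjusted p was 0.122 to 0.126. The targeting of SNAI2 and the origin of the SLUG KO cells from single-cell colonies cannot be told apart.

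WT MDA-MB-231 cells and unstimulated MI-spheres carry the same batch label but differ in line and culture, which cannot be told apart. Of 18732 genes tested, 25.6% were called lower and 27.7% higher in WT. ID2 was 188-fold lower (log2 fold change -7.56, SE 0.21, adjusted p = 3.34e-06), ID3 was 22.5-fold lower (-4.49, SE 0.37, adjusted p = 7.26e-05) and ID1 was 21.1-fold lower (-4.40, SE 0.27, adjusted p = 2.37e-05). ID4 was not called (-0.73, 95% interval -1.71 to 0.25, adjusted p = 0.179), and leaving out 1 library moved it from -0.94 (without WT replicate 1) to -0.47 (without WT replicate 2). ID2 had 18 to 20 counts per WT library. The epithelial and mesenchymal marker sums given above differ between the same groups, and their part in this result was not tested.

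The E proteins, the dimerisation partners of the family, were read beside it. In MII- against MI-spheres without TGFβ, all 3 were higher, where 31.8% of the 17862 genes tested were called higher and 32.6% lower. On the log2 scale TCF4 was higher by 2.08 (SE 0.076, adjusted p = 1.91e-41), TCF3 by 0.62 (SE 0.050, adjusted p = 1.23e-19) and TCF12 by 0.16 (SE 0.043, adjusted p = 6.44e-04). TGFβ raised TCF4 by 0.90 in MI- (adjusted p = 9.63e-08) and by 0.61 in MII-spheres (adjusted p = 4.19e-15), and TCF3 and TCF12 were not called in either. Over all genes tested, 28.7% were called higher and 27.4% lower in MI-spheres, and 30% and 27.7% in MII-spheres. Per kb of exon, TCF4 made up 1.76% and 3.13% of the summed E protein level in MI-spheres without and with TGFβ, and 5.42% and 7.83% in MII-spheres. These shares depend on the exon length, which joins all annotated isoforms of a gene. Without that division, unstimulated MII-spheres had on average 42.1 CPM of TCF4, 82.5 of TCF3 and 110 of TCF12. In unstimulated MI-spheres the means were 10.1, 54.4 and 98.8 CPM. TCF4 was nearly absent in MDA-MB-231 WT cells (0.198 CPM, log2 fold change -5.64 against unstimulated MI-spheres, adjusted p = 8.67e-06). None of the 3 was called under siSMAD2/3/4, where 16.3% of all genes were called higher and 19.8% lower. In SLUG KO, where 1.34% were called higher and 1.8% lower, TCF3 and TCF12 were not called and TCF4 was not tested.

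The summed ID level per kb was 48.1 times the summed E protein level in unstimulated MI-spheres (SD 2.40, n = 3) and 37.98 times in stimulated ones (SD 3.75). It was 12.99 (SD 0.285) and 8.77 (SD 0.861) in MII-spheres without and with TGFβ. In MDA-MB-231 it was 1.82 in WT (SD 0.334), 1.29 in SLUG KO (SD 0.0515), 2.07 in Csi (SD 0.148) and 2.78 in siSMAD2/3/4 (SD 0.0612). The ranges of the libraries did not overlap in any of the comparisons above. An exact permutation test gave p = 0.1 in each, the smallest value possible with 3 against 3 libraries. The E protein sum alone overlapped between SLUG KO and WT, between siSMAD2/3/4 and Csi, and between WT and unstimulated MI-spheres. The size of the ratio depends on the exon lengths, which join all annotated isoforms of a gene, so it is not a ratio of transcript numbers. This is a ratio of RNA, and the proteins were not measured here.

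**Figure D3:**
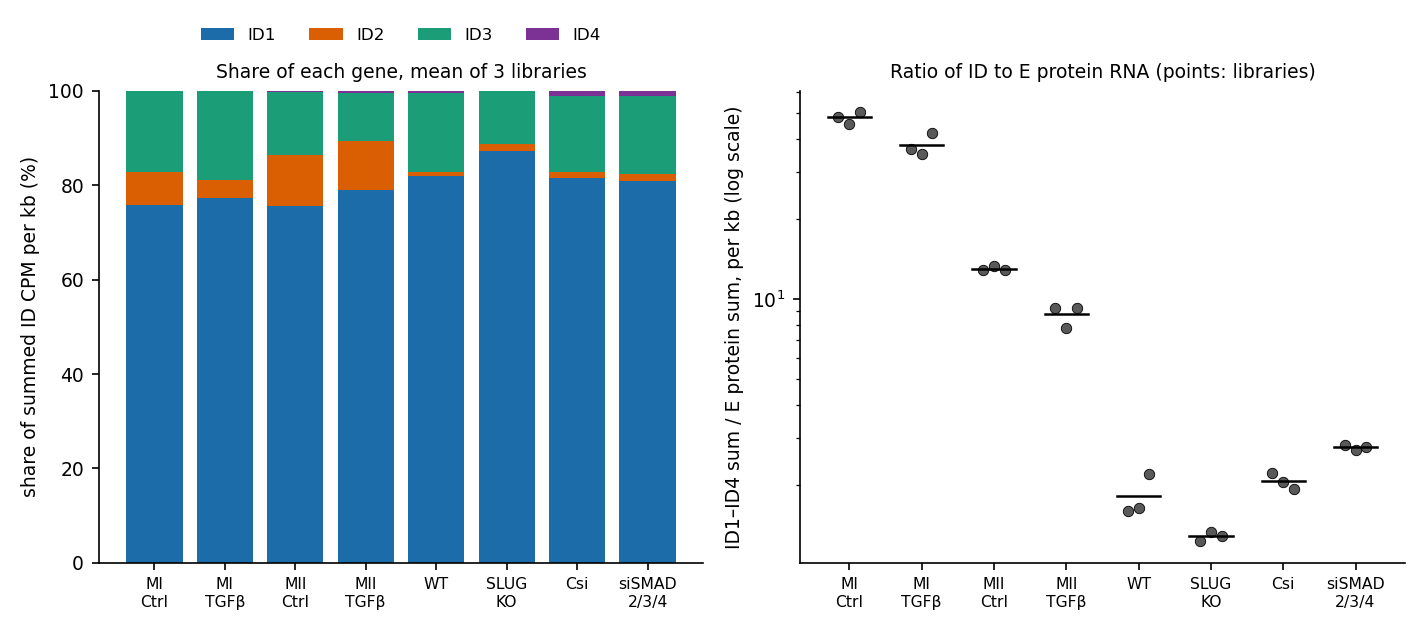
Left, share of each gene in the summed ID level per kb of exon (y axis, %, mean of 3 libraries) by group (x axis). Right, ratio of the summed ID level to the summed level of TCF3, TCF4 and TCF12 per kb (y axis, log scale), with points for libraries and lines for the mean. ID1 makes up 75.6% to 87.2% everywhere, the ID2 share falls from 6.90% to 3.97% under TGFβ in MI-spheres, and the ratio falls from 48.1 in unstimulated MI-spheres to 1.29 in SLUG KO cells.

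Genes of the BMP pathway, from lists chosen by role, were read beside the family. Among 16 other BMP target and feedback genes, 13 were tested in MI-spheres, of which 7 were lower and 3 higher after TGFβ, against 27.4% lower and 28.7% higher over all genes tested (median log2 fold change -0.18, against -0.016 over all). SMAD6, an inhibitory SMAD induced by BMP, fell by 1.65 (adjusted p = 5.95e-12) and BAMBI, a decoy receptor, by 1.60 (adjusted p = 1.04e-12). ATOH8, a helix-loop-helix factor downstream of BMP, fell by 3.57 (adjusted p = 7.98e-08). In the other direction MSX2, a homeobox target of BMP, rose by 0.37 (adjusted p = 0.00909) and SMAD5, which transmits the BMP signal, by 0.21 (adjusted p = 0.00235). In MII-spheres 4 of the 13 were lower, a share near the 27.7% of all genes, and 2 were higher, against 30% (median -0.082, against -0.018 over all). DLX2, a homeobox gene, fell by 2.29 (adjusted p = 1.20e-11) and ATOH8 by 1.89 (adjusted p = 1.65e-08), and SMAD6 had a log2 fold change of -0.55 and BAMBI one of 0.09 that was not called. The 2 higher genes were SMAD9, another BMP SMAD (0.73, adjusted p = 8.56e-04), and SMAD5 (0.22, adjusted p = 1.74e-06).

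The interaction called 4 of the 13 BMP target genes higher and none lower, against 12.7% higher and 9.85% lower over all genes (median 0.041, against -0.00057), among them BAMBI (1.70, SE 0.12, adjusted p = 1.53e-16), SMAD6 (1.12, SE 0.14, adjusted p = 1.48e-08) and ATOH8 (1.69, SE 0.52, adjusted p = 0.0153). ATOH8 was not called without MII TGFβ replicate 3 (adjusted p = 0.154) and reached 2.96 without MI TGFβ replicate 2. The log2 fold change of these 3 genes was thus higher in MII- than in MI-spheres, as was that of ID2, whereas that of ID3 was lower. That is, SMAD6, ATOH8 and ID2 fell less in MII-spheres, BAMBI was called lower in MI-spheres only, and ID3 fell more in MII-spheres. Under siSMAD2/3/4, 5 of 12 tested were higher and 2 lower, against 16.3% and 19.8% of all genes (median 0.26, against 0.0038), with ATOH8 (0.98, adjusted p = 8.07e-11) and SMAD6 (0.83, adjusted p = 3.30e-11) higher and SMAD5 (-0.18, adjusted p = 9.38e-04) and RUNX2, an osteogenic factor (-0.20, adjusted p = 0.00256), lower. In SLUG KO, SMAD6 was the only one of 10 called (-2.23, adjusted p = 0.0149), lower as were 1.8% of all genes, and it was not called without any 1 of the SLUG KO replicates (0.0828 to 0.0995).

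**Figure D4:**
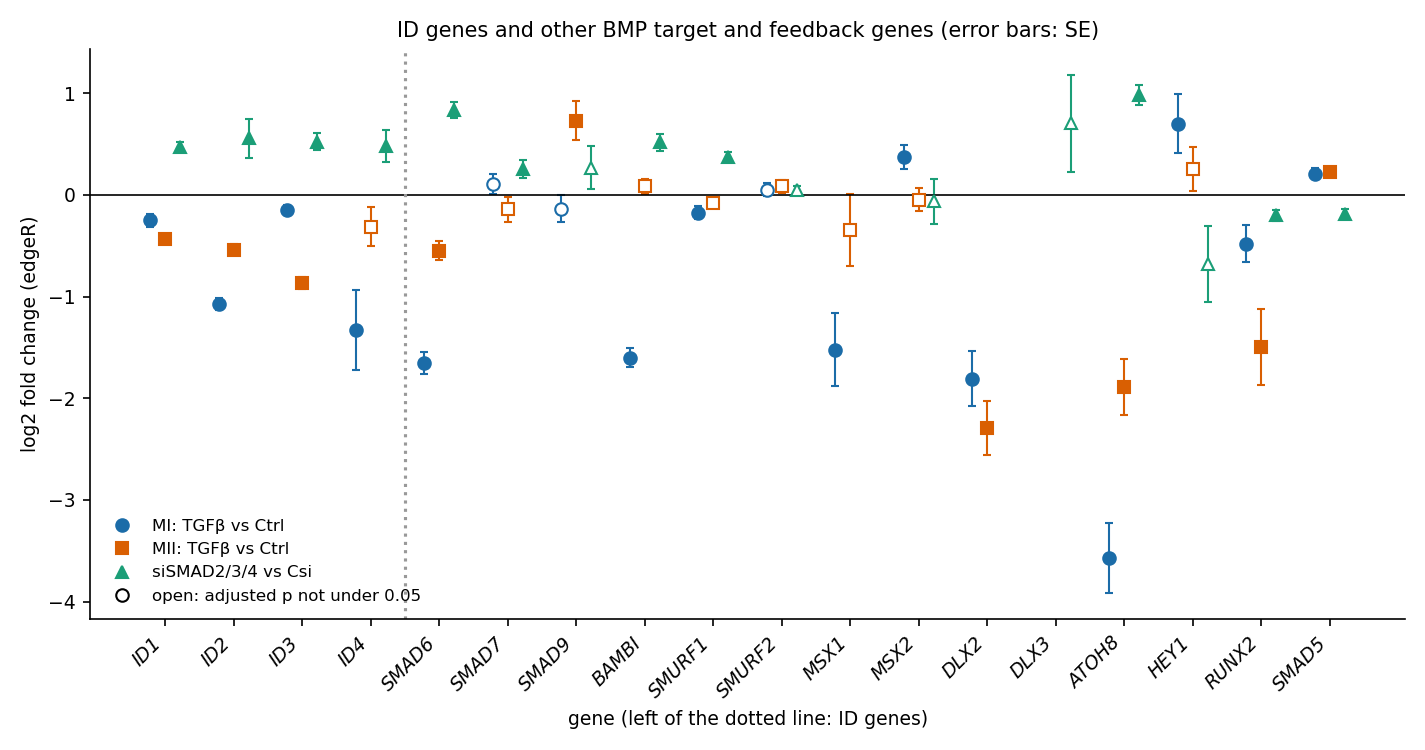
Log2 fold changes (y axis) of the ID genes and the tested members of the list of other BMP target and feedback genes (x axis) in MI-spheres with TGFβ, MII-spheres with TGFβ and siSMAD2/3/4 cells. Error bars are SE, and open symbols have an adjusted p of 0.05 or more. ID1 to ID4, SMAD6 and ATOH8 lie below 0 under TGFβ in each line, ID4 in MII-spheres as an open symbol (-0.32), and above 0 under siSMAD2/3/4. Other members differ: SMAD5 lies above 0 under TGFβ in each line and below 0 under siSMAD2/3/4, and RUNX2 lies below 0 in each comparison.

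Upstream of the family, the ligands, receptors and SMADs of BMP signalling moved in several directions. In MI-spheres 3 of 6 tested ligands were lower after TGFβ (BMP3, a ligand that antagonises others, by 2.89) and none higher, against 27.4% and 28.7% of all genes (median -0.84). In MII-spheres 3 of 7 were higher (BMP2 by 0.44) and none lower, against 30% and 27.7% (median -0.025). BMPR1B, a type I receptor, fell by 1.10 in MI-spheres (adjusted p = 6.84e-11), and the interaction was 1.29 (adjusted p = 4.50e-14). Among the 4 BMP SMADs, SMAD1 fell by 0.22 in MI-spheres (adjusted p = 0.0169), a call not made by DESeq2 (0.165) or without MI Ctrl replicate 2 (0.141) or MI TGFβ replicate 1 (0.0576), and SMAD5 rose as given above. In SLUG KO, where 1.8% of all genes were lower and 1.34% higher, 2 of 8 tested ligands, 1 of 8 receptors and 1 of 8 antagonists were lower and 1 antagonist was higher. The ligand BMP2 (0 to 2 counts per library, against 38 to 67 in WT, adjusted p = 0.00803, or 0.0504 without SLUG KO replicate 2), the receptor BMPR1B (0 to 1 counts, against 34 to 41, adjusted p = 0.00502) and the antagonist CHRDL1 (3 to 8 counts, against 85 to 125, log2 fold change -4.05, adjusted p = 0.00324) were lower. The ligand GDF5 was lower (-1.04, adjusted p = 0.0475) and the antagonist NOG higher (1.57, adjusted p = 0.0138), and each was not called in 5 of the 6 fits that leave out 1 library (0.0906 to 0.288 and 0.0519 to 0.0945). Under siSMAD2/3/4, where 16.3% of all genes were higher and 19.8% lower, 1 of 9 tested ligands was higher, BMP4 (0.55, adjusted p = 4.98e-16), and 1 lower, BMP8B (-0.62, adjusted p = 1.88e-04). BMP8B lost its call with flow cell as a term, a fit that rests on siSMAD2/3/4 replicate 3 alone. Of the BMP SMADs, SMAD1 was lower (-0.45, adjusted p = 7.85e-04), beside SMAD5 and the targeted SMAD4. Of 8 tested antagonists 5 were lower, with CHRDL1 at -0.84 and NOG at -0.40, and 1 was higher, FST, which binds activins and BMPs (0.45, adjusted p = 4.31e-09).

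Of 11 factors described to act on ID genes together with TGFβ, 3 were higher and 4 lower in MI-spheres, against 28.7% and 27.4% of all genes, and 1 higher and 6 lower in MII-spheres, against 30% and 27.7%. The shares in MI-spheres are thus near those over all genes. SMAD3, the TGFβ mediator, fell by 1.27 in MI- (adjusted p = 1.56e-14) and by 0.77 in MII-spheres (adjusted p = 1.76e-26). EGR1, an immediate-early factor, fell by 1.81 and 2.66, and KLF10, a TGFβ-inducible repressor, rose by 0.88 and 0.55. In MII- against MI-spheres without TGFβ, 7 of the 11 were higher, EGR1 by 1.12 and SKIL, a repressor of SMAD signalling, by 0.45 among them, and 1 was lower, MYC (-1.32, adjusted p = 9.94e-46), against 31.8% and 32.6% of all genes (median 0.38). Of 12 genes described as restrained or activated through E and ID proteins, 5 of 10 tested were higher and 3 lower in MI-spheres (median 0.057), and 9 higher and 1 lower in MII-spheres (median 0.48), against the same shares of all genes as for the 11 factors. MMP2, a matrix protease, rose by 2.22 and 1.75 and THBS1, a matrix glycoprotein held down by ID1 in other cells, by 1.94 and 0.82, and CDKN1C, a cyclin-dependent kinase inhibitor, fell by 1.88 in MII-spheres. Under siSMAD2/3/4, 2 of 10 were higher and 6 lower, against 16.3% and 19.8% of all genes, with CDKN1C at 1.04 and CCND1, a G1 cyclin, at -0.39.

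The other helix-loop-helix factors were mostly too low to test. Of 32 tissue-specific factors, 5 were tested in MI-spheres, with 1 higher and 2 lower, and 5 in MII-spheres, with 2 lower and none higher, counts too small to set against the 28.7% and 27.4% of all genes in MI- and 30% and 27.7% in MII-spheres. TWIST1, a mesenchymal factor, fell by 0.46 in MII-spheres (adjusted p = 0.00335, or 0.0585 by DESeq2). Among 11 HES, HEY and BHLHE repressors, 3 of 8 tested were higher and 4 lower in MI-spheres and 3 of 7 higher and 2 lower in MII-spheres. BHLHE40 rose by 1.67 in MI- and 0.83 in MII-spheres, BHLHE41 fell by 1.00 and 0.34, and HES1, a Notch target, fell by 0.44 and 0.26, all 3 called in each line.

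Over the 8 group means of log2 CPM, ID1 and ID3 had a Pearson's r of 0.989, ID1 and ID2 of 0.957 and ID2 and ID3 of 0.909, whereas ID4 had 0.302 to 0.340 with the others. The means share lines and batches, and the values are a description. Among 16228 genes whose group means had an SD of at least 0.5, the most like ID1 were LTC4S (0.995), OSCP1 (0.995) and IGFL2-AS1 (0.995), and those most like ID2 were CYP4F12 (0.999), ESRP2 (0.998) and ST6GALNAC1 (0.998). The most like ID3 were LTC4S (0.990), FAM66B (0.990) and ID1 (0.989), and the most like ID4 were RAB4B (0.986), GPC2 (0.978) and FHDC1 (0.977). Over the 6 groups of a single batch label, 1 of the 12 names so obtained returned, CYP4F12 for ID2.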

How the data were processed

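RNA-seq counts of 24 libraries in 8 groups of 3 were analysed. The authors depleted ribosomal RNA, used Trimmomatic for trimming and STAR for alignment to GRCh38, and counted read pairs over GENCODE exons with featureCounts (Subread 2.0.0). Per the file headers, strand was ignored and a minimum mapping quality of 30 was required, so near-identical copies can lose reads. The deposited values are raw counts per gene. Groups came from the sample labels.

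Fits used the 6 libraries of a comparison (12 for the interaction) with edgeR 4.0.16 in R 4.3.3: filterByExpr (minimum count 10), TMM, a robust quasi-likelihood test, and Benjamini-Hochberg adjustment over all genes tested. A gene was called at an adjusted p under 0.05. Fold changes use this scaling, levels use TMM over the 24 libraries, so ratios of levels can differ slightly. SE is the absolute log2 fold change over the square root of F. The fit was tested on simulated counts in which genes changed by 2- or 8-fold and fewer genes changed than were called in the data. The share of false calls was above the threshold in every comparison simulated but siSMAD2/3/4, and can differ in the data. Changes of 2-fold were mostly missed in SLUG KO, and smaller changes were not simulated in any comparison. Intervals and floors cover counting error only where given for counts. No fit joins the siSMAD2/3/4 and Csi libraries with the others, which carry another batch label. Replicate numbers were checked for pairing and did not pair the samples. Promoters came from RefSeq (GRCh38.p14).

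The members, gene lists and tests were chosen with earlier results of these data known. Named are all 4 members, the E proteins, at most 2 called genes per list, direction and comparison by adjusted p, the 3 genes most like each member and the targeted genes with HRAS; 1 further gene of this rule is not reported here. SMAD6 and BAMBI in MII-spheres were named after their values were seen. Alternatives were DESeq2 1.42.0, its size factors, no filter, at least 10 counts in every library, a replicate block, larger fits, flow cell as a term and leaving out each replicate.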

Additional observations from a re-analysis of the deposited data

Results flagged for a closer look

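The responses of ID2 and ID3 to TGFβ differed between the lines in the test of the difference itself, the interaction in edgeR's fit of the 12 sphere libraries. The log2 fold change of ID2 was 0.55 higher in MII- than in MI-spheres, and the log2 fold change of ID3 differed by -0.71 (MII minus MI). Both kept their direction and their call under every alternative run, with ranges of 0.46 to 0.56 for ID2 and -0.77 to -0.68 for ID3.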

How the results depend on the processing

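Of 388 values over 31 results of the ID genes, 364 kept their direction and side of the threshold, 15 lost a call, 9 gained one and no called value changed sign. The cause was not tested. ID2 in SLUG KO, never called, ran from -0.00257 to 0.41. DESeq2 gave 0.55 for ID2 under siSMAD2/3/4 (adjusted p = 0.0678), -0.11 for ID3 (0.0980) and -1.30 for ID4 (0.0690) in MI-spheres with TGFβ, and called ID3 in SLUG KO (-1.34, 0.0101). Without a low-count filter ID3 was at -0.15 in MI-spheres (0.0527) and -1.31 in SLUG KO (0.0287). In a fit of 18 libraries of 1 batch label, ID1 (-0.67, 0.00878) and ID3 (-1.39, 3.06e-04) were called in SLUG KO. With flow cell as a term, which leaves siSMAD2/3/4 replicate 3 alone against Csi, ID2 was at 0.24 and ID4 at 0.48, and neither was called.

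Leaving out 1 replicate changed a call of these results, with ranges of -0.84 to -0.44 for ID1 (called at -0.44 without WT replicate 2) and -1.66 to -1.05 for ID3 in SLUG KO, -0.29 to -0.11 for ID1 in the interaction, 0.41 to 0.69 for ID2 and 0.40 to 0.55 for ID4 under siSMAD2/3/4, -0.17 to -0.12 for ID3 and -1.50 to -1.09 for ID4 in MI-spheres, and -0.57 to -0.14 for ID4 in MII-spheres. The replicate block (ID2 in MI-spheres -1.08) changed no call of an ID gene. ID4 did not enter fits that needed 10 counts in every library against MI-spheres with TGFβ or WT, and its SLUG KO test rests on alternatives. Among 78 results of named genes outside the family, leaving out 1 replicate took a call away 22 times, in SLUG KO for SNAI2, NOG and GDF5 (5 times each), SMAD6 (3) and BMP2 (1), in MI-spheres for SMAD1 (2) and in the interaction for ATOH8 (1). With the block NOG (1.59, adjusted p = 0.0563), SMAD6 (-2.21, 0.0536), SNAI2 (1.13, 0.114) and GDF5 (-1.03, 0.173) in SLUG KO lost their call. GDF5 also lost it with DESeq2's size factors (0.0509), with no filter (0.0905) and, as SNAI2 did (0.0605), with 10 counts in every library (0.0642). DESeq2 did not call SMAD1 in MI-spheres or TWIST1 in MII-spheres, flow cell as a term took away BMP8B, and the fit of all 12 sphere libraries called TCF12 in MI-spheres (0.12, 0.0423). The order of groups and of members stayed the same under DESeq2's size factors. The ID3 ranges of unstimulated and stimulated MI-spheres, which overlapped under TMM, did not overlap under these size factors.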

Other observations

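The spread between replicates was largest in WT cells for 3 of the 4 genes: the SD of log2 CPM was 0.427 for ID1, 0.680 for ID3 and 0.571 for ID4, against medians over the groups of 0.108, 0.0810 and 0.247. ID2 spread most in SLUG KO (0.369, median 0.0918). The E protein sum per kb was 18.0111, 33.2 and 19.4 in WT replicates 1 to 3.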
